A study of Mus musculus with 9 samples.

Results

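Oxidative phosphorylation transcripts encoded in the nucleus were followed through mouse spermatogenesis in single-cell RNA-seq of whole testis. The members are all gene symbols that begin with Ndufa, Ndufb, Ndufc, Ndufs, Ndufv, Uqcr, Atp5, Cox4, Cox5, Cox6, Cox7 or Cox8, together with Cycs and Cyct, leaving out the pseudogene symbols ending in -ps and the Ndufaf assembly factors. The rule used names only, and it found 83 of the 32285 genes of the count matrices. Of these, 36 are subunits of complex I, 8 of complex III, 19 of complex IV and 17 of complex V, 1 (Cox7a2l) joins complexes III and IV, and 2 are cytochromes c. They lie on 19 chromosomes, with 3 on chromosome X.

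The study asked how spermatogonia and spermatocytes depend on the transcription pausing factor NELF-B and on the RNA-binding protein TDP-43. One 10x Genomics 3′ library was made from the testis of each of 9 mice at postnatal day (PND) 24, of which 4 were Control, 2 NELF-B cKO and 3 TDP-43 cKO, and the labels give the strain as C57BL/6 for all. Per the study's methods, the lines had been crossed back to C57BL/6 J, the floxed Nelfb line from C57BL/6 N and the floxed Tardbp line from a mix of both substrains. The cKO mice carried the Stra8-iCre transgene, which acts in spermatogonia from PND4, with 1 floxed and 1 null allele of Nelfb (exons 1 to 4 floxed) or of Tardbp (exon 3 floxed). The Control mice are called wild type in the study and are described as littermates and non-littermates, and their Cre status is not given in the sources used here. Cells were named here from marker genes as spermatogonia (SG), spermatocytes (SC), round spermatids (RS), and Sertoli, Leydig, interstitial and immune cells. The SC stages, in order, are preleptotene (written pL), leptotene (written L), zygotene (Z), then pachytene (P), and last diplotene (D), and pL, L and Z cells summed are called early SC. UMIs, the counted transcript molecules, were summed per mouse and cell type and are given as counts per 1000000 UMIs of that sum (CPM), so each mouse is 1 replicate.

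Mitochondria make ATP by passing electrons along complexes I, III and IV, with cytochrome c as the carrier between III and IV, and by letting the pumped protons return through complex V, the ATP synthase. Most subunits are encoded in the nucleus, while a smaller set comes from mitochondrial DNA. Male germ cells are known for replacing cytochrome c and several small complex IV subunits with testis isoforms: Cyct in place of Cycs, Cox6b2 in place of Cox6b1, Cox7b2 in place of Cox7b and Cox8c in place of Cox8a. Pachytene cells are also known for silencing the sex chromosomes.

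The sequences below show where the genes of these pairs other than Cox8c are transcribed from, as the 150 bases before the annotated start of each gene, read 5′ to 3′ on the strand of the gene (RefSeq, GRCm38.p6). Capitals mark exact matches, on either strand, to strings known from promoters of respiratory genes.
Cyct (chr2:76360454-76360603, minus strand): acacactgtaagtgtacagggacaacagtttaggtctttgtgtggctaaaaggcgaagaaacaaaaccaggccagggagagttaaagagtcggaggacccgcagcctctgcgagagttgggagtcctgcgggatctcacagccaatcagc
Cox6b2 (chr7:4753095-4753244, minus strand): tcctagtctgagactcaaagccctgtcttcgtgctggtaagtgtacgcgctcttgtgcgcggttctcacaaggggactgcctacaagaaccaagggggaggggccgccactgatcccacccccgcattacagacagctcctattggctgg
Cox7b2 (chr5:71548206-71548355, minus strand): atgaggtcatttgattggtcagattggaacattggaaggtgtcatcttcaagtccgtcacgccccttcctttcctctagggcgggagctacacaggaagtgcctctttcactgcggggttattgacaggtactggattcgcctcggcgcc
Cycs (chr6:50566570-50566719, minus strand): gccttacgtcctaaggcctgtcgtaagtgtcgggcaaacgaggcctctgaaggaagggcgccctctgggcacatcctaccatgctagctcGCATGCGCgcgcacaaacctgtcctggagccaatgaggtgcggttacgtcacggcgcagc
Cox6b1 (chr7:30626115-30626264, minus strand): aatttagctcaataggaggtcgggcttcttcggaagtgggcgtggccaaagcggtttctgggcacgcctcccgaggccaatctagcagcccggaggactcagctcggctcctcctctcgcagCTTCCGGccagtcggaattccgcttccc
Cox7b (chrX:106015550-106015699, plus strand): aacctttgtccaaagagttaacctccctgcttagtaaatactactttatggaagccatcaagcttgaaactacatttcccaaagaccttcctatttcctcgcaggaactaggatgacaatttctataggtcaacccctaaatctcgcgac
Cox8a (chr19:7217617-7217766, minus strand): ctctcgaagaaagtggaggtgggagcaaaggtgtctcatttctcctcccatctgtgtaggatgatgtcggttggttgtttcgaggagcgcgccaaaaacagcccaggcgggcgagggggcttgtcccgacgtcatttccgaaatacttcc
The capitals in Cycs are the NRF1 string GCATGCGC at positions -60 to -53 from the start, and those in Cox6b1 are the GABPA string CCGGAAG on the opposite strand at positions -28 to -22. Further strings searched on both strands were TGACGTCA for CREB and AAGATGG for YY1, whose first bases can overlap the last 3 of the GABPA string. The search also took in TAACGG for MYB and the TATA box string TATAAA. Of the 83 members, 67 matched a promoter by symbol, with 72 windows of 250 bases before to 50 bases after a start. Read over both strands, the NRF1 string was in 13.9% of those member windows and in 2.71% of all 32851 windows, and the GABPA string in 20.8% and 8.86%. CREB was in 6.94% of member windows against 1.79% of all, YY1 in 13.9% against 6.34%, MYB in 2.78% against 2.76%, and the TATA box in 12.5% against 13.6%. Member windows held a median of 59.7% G and C in the 150 bases before the start, against 54.0% in all windows. The GABPA string also matched the opposite strand of Cox8a at -5 to 1, running past the end of the stretch shown, and at 32 to 38. Outside the bases shown, Cycs held the CREB string at -169 to -162 and Cox7b2 the TATA box string on the opposite strand at -221 to -216. These are matches of letters, not tested sites.

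The libraries held 119203347 to 159407373 UMIs each, and 45132 barcodes passed the filter of over 1000 genes and under 10% mitochondrial UMIs. Of these barcodes, 29449 fell in 27 clusters that could be named. The named share was 35.8 to 71.3% in Control mice, 67.9 and 99.0% in NELF-B cKO mice and 98.1 to 99.3% in TDP-43 cKO mice. The largest unnamed clusters had medians under 2000 UMIs, and 1 of them came to 98.8% from Control mouse 2. Pairs of libraries shared at most 24 barcodes. Nelfb read 62.6 to 76.1 CPM in Control SG and 6.01 and 4.80 CPM in NELF-B cKO SG with no cell left out. Tardbp read 63.4 to 69.4 CPM in Control SG and 30.8 to 35.2 CPM in TDP-43 cKO SG, where 3′ UMIs outside the floxed exon do not report its deletion. NELF-B cKO mouse 1 held 323 P, 299 D and 366 RS cells, NELF-B cKO mouse 2 held 90, 7 and 12, and TDP-43 cKO mouse 1 held 5, 3 and 3.

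In Control mice, Cox8c, Cyct and Cox6b2 had the 3 largest rises of all members at P, Cox7b2 rose both before and at P, and all 4 counterparts fell at P. Cyct read 103, 83.2, 94.3 and 84.1 CPM in the SG sums of Control mice 1 to 4 (the order used throughout), 161, 119, 130.0 and 136 CPM in Z and 577, 516, 504 and 562 CPM in P. Its counterpart Cycs read 242, 231, 228 and 232 CPM in SG, 190.0, 156, 185 and 205 CPM in Z, 34.2, 29.0, 23.7 and 30.0 CPM in P and 8.67, 8.44, 9.08 and 8.88 CPM in D. Cycs was thus the higher of the cytochromes c in every Control mouse through Z, and Cyct from P on, with no overlap between P and the earlier stages for either gene. Against early SC, Cyct was higher in P by a log2 fold change of 3.07 (SE 0.10, adjusted p = 7.12e-15), and Cycs fell by 2.27 (SE 0.09, adjusted p = 7.18e-14). Cycs fell again at D by 1.44 (SE 0.10, adjusted p = 2.33e-10) and rose at RS by 1.92 (SE 0.10, adjusted p = 2.62e-12), where it read 36.5, 40.4, 39.0 and 36.7 CPM. Of its 3′ end, 39.3% of 60-base words also occur in other annotated genes, among them the pseudogene Cycs-ps2. The level of Cycs is therefore uncertain, by an amount that was not estimated.

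The fitted rise of the complex IV isoforms at P ranged from 1.93 for Cox7b2 to 3.46 for Cox8c. Cox8c (chr12:102899316-102900526, mm10), the testis form of subunit 8, read 395, 159, 284 and 193 CPM in SG, 759, 392, 574 and 511 CPM in Z, 3289.7, 2965, 3169 and 3114 CPM in P and 3706, 3614, 3481 and 3576 CPM in D. It was the highest of all members from P to RS by its Control mean (3134 ± 135 CPM in P, SD, n = 4). Cox8a, the form used in most other tissues, read 628, 591, 539 and 613 CPM in SG, 222, 142, 165 and 169 CPM in pL and 64.0, 60.5, 57.2 and 72.2 CPM in L. Cox8a therefore stood lower in every mouse by pL, ahead of the rise of Cox8c at P. Its fall from SG to early SC was 2.38 (SE 0.10, adjusted p = 1.75e-12), and the rise of Cox8c from early SC to P was 3.46 (SE 0.19, adjusted p = 4.78e-12).

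Cox7b2, the testis form of subunit 7B, read 196, 154, 169.8 and 154 CPM in SG, with no free RNA taken off, and Cox7b read 78.5, 94.1, 82.7 and 80.3 CPM. Since part of the Cox7b2 UMIs in SG can be free RNA, the order of the pair in SG is not read from these values. It climbed to 755, 716, 646 and 819.9 CPM in Z and 1048, 1045, 953 and 1118 CPM in P. The Z and P values do not overlap, and Cox7b2 is the isoform with the smallest step at P, a log2 fold change of 1.93 (SE 0.10, adjusted p = 2.66e-12) against early SC after one of 1.30 (SE 0.10, adjusted p = 3.24e-09) between SG and early SC. Cox6b2, the testis form of subunit 6B, read 158, 100.3, 133 and 111 CPM in SG, 471, 322, 376 and 396 CPM in Z and 1329, 1193, 1150.0 and 1324 CPM in P. Cox6b1 read 445, 409, 394 and 414 CPM in SG, 126, 125, 106 and 119 CPM in L and 59.9, 58.8, 49.4 and 56.4 CPM in P. Cox6b1 fell by 0.77 (SE 0.08, adjusted p = 1.06e-07) at early SC and by 1.50 (SE 0.08, adjusted p = 3.60e-12) at P, and Cox6b2 was higher by 0.94 (SE 0.12, adjusted p = 1.83e-06) and 2.99 (SE 0.12, adjusted p = 1.47e-13). The first of these Cox6b2 steps starts from SG values that are not read as expression below, and the part of free RNA in its size was not tested.

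**Figure D1:**
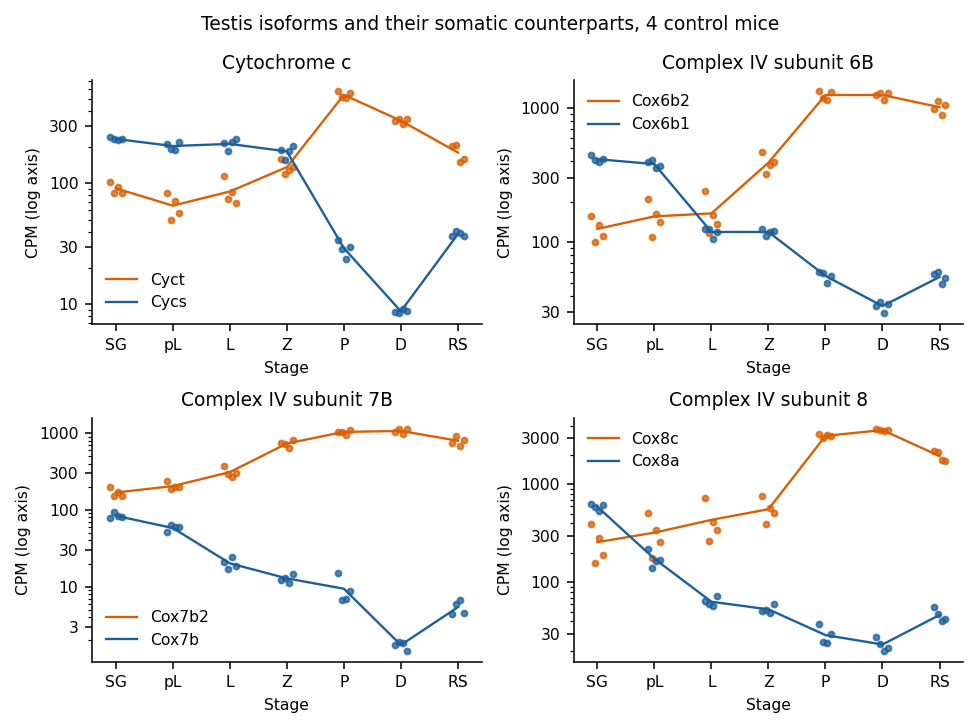
CPM on a log axis of each testis isoform (orange) and its somatic counterpart (blue) by germ cell stage; points are the 4 Control mice and lines join their means. The lines cross between SG and P for Cyct, Cox6b2 and Cox8c, whereas the Cox7b2 values, with no free RNA taken off, lie above those of Cox7b at every stage.

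Expressed as a share of the UMIs of the pair, each testis isoform made at least 94.4% of its pair in P of every Control mouse. Cox8c made 21.2 to 38.6% of Cox8c and Cox8a UMIs in SG of the Control mice, 55.6 to 69.8% in pL, 81.2 to 91.8% in L and 98.9 to 99.2% in P. Cox6b2 made 19.7 to 26.2% of its pair in SG, 48.6 to 65.6% in L, 74.2 to 79.1% in Z and 95.3 to 95.9% in P. These pL and L values have no free RNA taken off. In L of TDP-43 cKO mouse 1, whose library held the least free RNA of these genes, Cox8c made 25.9% and Cox6b2 6.86%, and in L of TDP-43 cKO mice 2 and 3 Cox8c made 58.6 and 55.7% and Cox6b2 24.3 and 21.0%, all below the Control ranges. The pL and L shares of Control mice are therefore not read as the stage at which these pairs changed places. For Cox7b2 the share went from 62.1 to 71.4% in SG to 90.3 to 93.9% in early SC and 98.6 to 99.4% in P. Cyct alone of the 4 was still the minor form in Z, with 26.4 to 29.8% in SG, 39.9 to 45.8% in Z, 94.4 to 95.5% in P and 97.2 to 97.6% in D. It was also the pair in which the somatic form came back most at RS, where Cyct made 79.4 to 84.8%. In P of the cKO mice, with no cell left out, Cox8c made 98.4 to 99.2% (NELF-B cKO) and 98.8 to 99.0% (TDP-43 cKO mice 2 and 3), and Cyct made 92.3 to 96.2% and 92.3 to 93.6%. After the removal of cells in which the deleted gene was still seen, Cox8c made 99.3 and 98.0% in NELF-B cKO and 97.6 and 98.0% in TDP-43 cKO mice, and Cyct 96.6 and 90.9% in NELF-B cKO and 87.4 and 85.1% in TDP-43 cKO mice. Those P sums of TDP-43 cKO mice 2 and 3 hold few cells of low depth, as given below, and so few Cycs UMIs. Their cells are also part of the first set, so the second set is no separate support. Before and after the removal, the share of Cyct was below its Control range in both TDP-43 cKO mice and in NELF-B cKO mouse 2. In NELF-B cKO mouse 1 it was above that range in both sets.

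Part of the testis isoform UMIs outside P, D and RS moved with free RNA. Free RNA was read from barcodes of 1 to 100 UMIs, where Cox8c stood at 2350.0 to 3120.5 CPM in Control mice. Sertoli cells, which are somatic and are not known to use these isoforms, read 1229, 405, 608 and 486 CPM of Cox8c in the Control mice, or 16.9 to 39.4% of the free RNA level, and Leydig cells 4.37 to 11.6%. SG stood at 6.65 to 12.7% of free RNA for Cox8c and 8.47 to 11.0% for Cox6b2, below or within the Sertoli range, so these values in SG are not read as expression. Cyct stood at 29.4 to 32.2% of free RNA in Control SG, against 25.7 to 48.9% in Sertoli cells, and Cox7b2 at 17.2 to 19.8% against 19.2 to 36.2%. Set against Cox8c of the same cells, however, Cyct read 0.261 to 0.523 times as high in SG, 0.126 to 0.228 times in Sertoli cells and 0.103 to 0.122 times in free RNA of the Control mice. For Cox7b2 the ratios were 0.497 to 0.969 in SG, 0.281 to 0.454 in Sertoli cells and 0.325 to 0.380 in free RNA, so both genes stood higher against Cox8c in SG than in free RNA in every Control mouse. SG of the Control mice had medians of 16082 to 24608 UMIs per cell and Sertoli cells of 2075 to 2696. Across the 9 mice, Cox8c in SG followed free RNA (Pearson's r 0.93 and Spearman's rho 0.97), as did Cox6b2 (Pearson's r 0.96 and Spearman's rho 0.93), over points that share each library.

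TDP-43 cKO mouse 1, with 11 P, D and RS cells in all, had little testis isoform RNA outside cells. Its free RNA held 38.4 CPM of Cyct and 94.0 CPM of Cox7b2. Its SG read 94.9 CPM of Cyct against 4.61 CPM in its Sertoli cells, and 141 CPM of Cox7b2 against 14.4 CPM. Both genes were thus above the free RNA level in SG of this mouse. Cox8c and Cox6b2 in its SG were below the free RNA level but above its Sertoli cells. The order seen in Control mice, with SG below or within the Sertoli range, did not hold for them here. In its early SC, Cox7b2 read 307 CPM, Cox6b2 87.6 CPM and Cox8c 64.8 CPM, against free RNA of 94.0 CPM for Cox7b2, 51.4 CPM for Cox6b2 and 77.8 CPM for Cox8c. Cox7b2 and Cox6b2 were above free RNA there and Cox8c was not, though in Z alone Cox8c read 227 CPM. Over the 9 mice, Cyct against free RNA gave Pearson's r 0.26 and Spearman's rho 0.27 in SG and Pearson's r 0.77 and Spearman's rho 0.80 in early SC. Cox7b2 gave Pearson's r 0.77 and Spearman's rho 0.73 in SG and Pearson's r 0.12 and Spearman's rho 0.07 in early SC. In early SC Cox8c followed free RNA as closely as in SG (Pearson's r 0.93 and Spearman's rho 0.97), and Cox6b2 gave Pearson's r 0.67 and Spearman's rho 0.68. The early SC level from which the rise of Cox8c at P is counted thus moved with free RNA, and the part of free RNA in it was not tested.

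**Figure D2:**
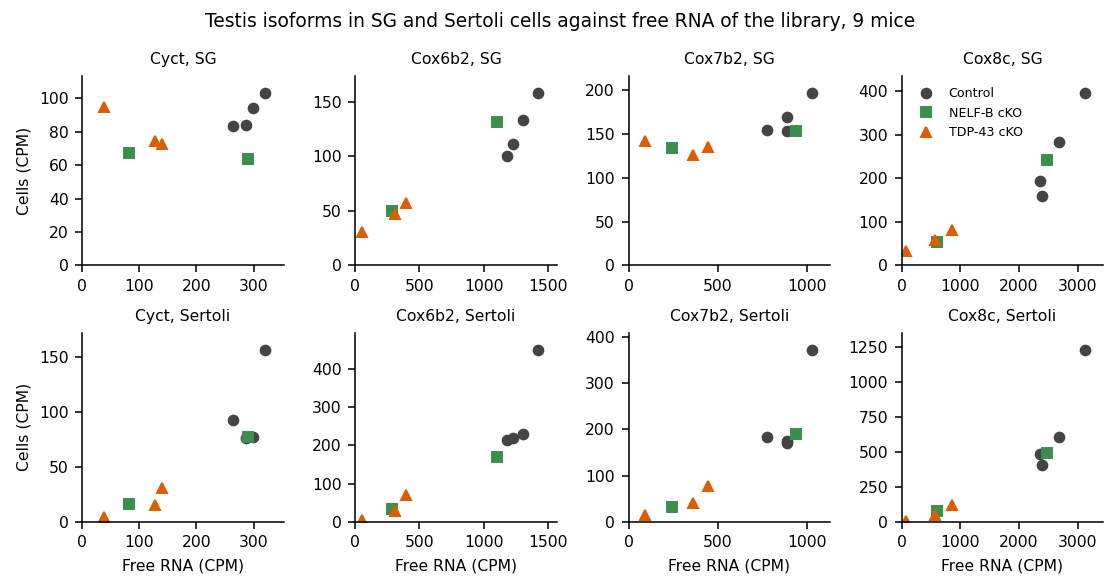
CPM of the 4 testis isoforms in SG (top) and Sertoli cells (bottom) of each of the 9 mice against the CPM in free RNA of the same library; grey circles are Control, green squares NELF-B cKO and orange triangles TDP-43 cKO mice. Sertoli values rise with free RNA for all 4 genes, while Cyct in SG of the TDP-43 cKO mouse with the least free RNA (38.4 CPM) lies at 94.9 CPM.

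The stages were compared in 1 edgeR quasi-likelihood fit over all genes with the mouse as a block, and calls needed a 1.5-fold change with an adjusted p under 0.05. Between SG and early SC, 14 of the 81 members tested were called higher and 12 lower, where 20.3% and 24.5% of all 19456 genes tested were called higher and lower. Between early SC and P, 48 members were higher and 11 lower, against 32.1% and 29% of all genes, and the members' median log2 fold change was 0.79 against -0.03 for all genes. D and P differed less, with 9 members higher and 10 lower (26% and 28.5% of all genes). At RS, 11 members were higher than in D and 44 lower, against 37.9% and 31.1% of all genes, with a median of -0.65 for the members and 0.16 for all genes. Of the 48 members that rose at P, 32 fell at RS, and of the 11 that fell at P, 9 rose at RS. Cox6a2 and Cox8b, the muscle forms of complex IV subunits 6A and 8, were too low to test.

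These differences depend on how stages of very different RNA content are put on 1 scale. The TMM scaling factors ran from 1.33 to 1.42 in SG to 0.717 to 0.765 in D, so fitted fold changes at P and D lie above the ratios of the CPM values and those at RS below. With no scaling factor the median of all genes at P moved from -0.03 to -0.55, and 22 members were called higher and 15 lower (22.6% and 43.1% of all genes, at D 20.4% and 37.3%, and at RS 41.1% and 25.4%), with 0 of the 81 called in the opposite direction. Relative to the median of all genes, the members stood 0.83 higher at P with TMM, 0.82 with DESeq2 size factors and 0.82 with no factor, and at RS 0.80, 0.80 and 0.79 lower. With cells clustered at a resolution of 1.2 the members stood 0.43 higher at P and 0.60 lower at RS. They stood 0.92 higher and 0.59 lower with cells of at least 5000 UMIs, and 0.76 higher and 0.61 lower with cells under 5% mitochondrial UMIs. The size of this difference thus depends on the clustering and on the cells kept. Of the members described below, Ndufa12, Ndufb9, Ndufc2, Uqcrc2, Cox4i1, Cox7a2 and Atp5g3 were not called at P with no factor, nor was Cox7a2 at D, nor were Cox7b2, Cox7a2 and Atp5e at RS.

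**Figure D3:**
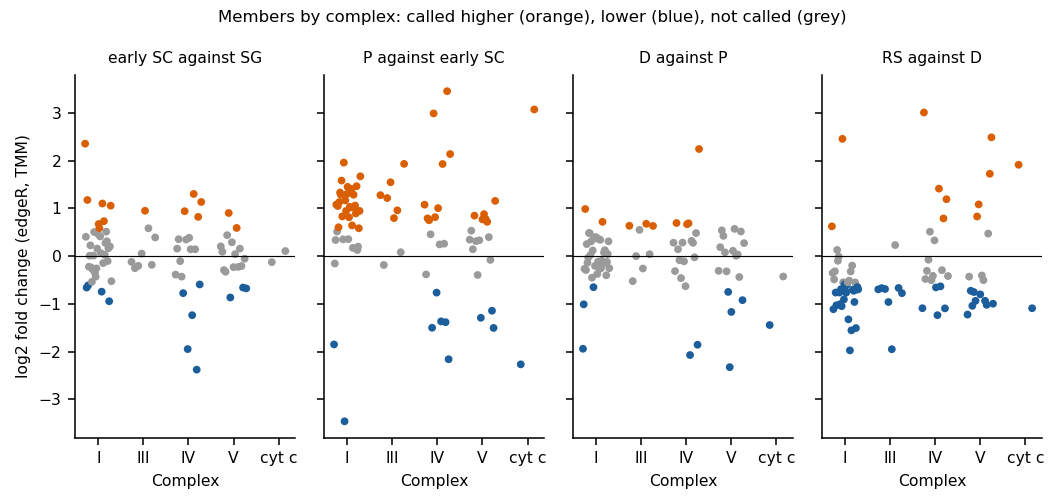
Log2 fold change of each tested member in the 4 stage comparisons (edgeR, TMM scaling, 4 Control mice), placed by complex, with Cox7a2l shown with complex IV; orange points were called higher, blue lower and grey not called. Most complex I and III points lie above 0 at P and below 0 at RS, and complex IV holds both the highest and several of the lowest points at P.

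In complex I, the entry point of electrons from NADH, most subunits were higher at P and lower at RS. At P, 26 of its 36 subunits were higher and 2 lower, with a median log2 fold change of 0.98, and 12 were higher and 3 lower with no scaling factor (median 0.46). At RS, 22 were lower and 2 higher, with a median of -0.69, and 10 were lower and 2 higher with no factor. Ndufb9, its most abundant transcript in SG at 897, 744, 822 and 838 CPM, read 718, 584, 661 and 652 CPM in P and 237, 213, 189 and 185 CPM in RS. It was lower in RS than in SG, P or D in every mouse, and its change from D was -1.32 (SE 0.07, adjusted p = 2.09e-12). All 7 core subunits had a positive difference at P with TMM and 4 were called, where 4 of 7 were positive and 1 was called with no factor.

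Other complex I subunits departed from that course. Ndufc1, a small subunit of the membrane arm, rose earlier, from 255, 240.0, 257 and 233 CPM in SG to 790.3, 647, 684 and 691 CPM in Z and 877, 968, 918 and 915 CPM in P. It was the member most like Cox7b2 over the 28 sums of Control germ cells (Pearson's r of log2 CPM 0.97, over 7 stages of 4 mice that share libraries). Ndufc2, its neighbour in the complex, read 243, 206, 202 and 228 CPM in P and 53.5, 50.9, 39.4 and 35.8 CPM in RS, and its fall at RS of 1.97 (SE 0.10, adjusted p = 1.89e-12) was the largest of any member. Ndufa12, an accessory subunit, rose at early SC (1.18, SE 0.10, adjusted p = 9.41e-09), at P (1.08, SE 0.10, adjusted p = 6.22e-09) and at D (0.99, SE 0.10, adjusted p = 3.17e-08). It read 147, 91.1, 119 and 102 CPM in SG and 597, 551, 573 and 595 CPM in D, and 26.6% of its 3′ words occur in the predicted gene Gm15920.

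In complex III, 6 of 8 subunits were higher at P and 0 lower, and 7 of 8 fell at RS. The counts with no scaling factor were 4 higher and 1 lower at P and 2 lower at RS. Uqcrc2, a core protein, read 198, 164, 210.3 and 229 CPM in early SC, 245, 209, 247 and 270.0 CPM in P and 56.5, 56.8, 44.0 and 42.4 CPM in RS. Its fall at RS of 1.95 (SE 0.10, adjusted p = 2.70e-12) left it lower in RS than in SG (101 to 121 CPM) in every mouse. Uqcrh, the hinge protein and the highest of the complex in SG at 648, 595, 575 and 600.0 CPM, was not called at P (0.08) and read 386, 358, 348 and 382 CPM there. Uqcrq, a small subunit, had the largest rise of the complex at P, 1.93 (SE 0.09, adjusted p = 3.79e-13), and after Cox6b2 was the member most like Cox8c over the 28 sums (r 0.96). Cyc1, cytochrome c1, which the naming rule does not take in, was not called at P and fell at D by 2.19 (SE 0.10, adjusted p = 3.04e-12).

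Complex IV, which reduces oxygen, had subunits of both directions at P, with 9 of 17 tested higher and 5 lower (4 and 5 with no scaling factor). Cox4i1, the main form of the regulatory subunit 4 and the highest member in SG at 1509.8, 1252, 1299.9 and 1410.1 CPM, read 1190.1, 807, 945 and 992 CPM in early SC and 1591, 1347, 1332 and 1507 CPM in P. It rose at P (1.08, SE 0.08, adjusted p = 1.87e-10) and fell at RS (lower by 1.09, SE 0.08, adjusted p = 1.58e-10). Cox7a2, the common form of subunit 7A, rose at P (1.01, SE 0.08, adjusted p = 6.27e-10) and at D (0.67, SE 0.08, adjusted p = 2.78e-07), from 573 CPM on average in SG to 1287 CPM in D. Cox6a1, the common form of 6A, was not called at any step and averaged 373 CPM in SG and 211 CPM in RS. Cox7a1, known from muscle, was low in germ cells, at 10.2 to 15.9 CPM in SG, and fell from there at early SC by 1.95 (SE 0.29, adjusted p = 1.31e-05). It was higher in Leydig cells, at 151 to 188 CPM. Cox4i2, the lung form, reached at most 3.28 CPM in any germ cell sum of the Control mice, so its call at RS (3.01, SE 0.53, adjusted p = 3.93e-05) rests on 1.97, 1.51, 2.64 and 1.28 CPM.

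Ndufa4, a complex IV subunit despite its name, gave way to Ndufa4l2, known as its hypoxia-induced relative. Ndufa4 read 405, 443, 395 and 413 CPM in SG, 44.8, 42.3, 33.3 and 41.0 CPM in P and 11.1, 8.93, 7.41 and 9.47 CPM in D. Ndufa4l2 read 8.46, 3.51, 6.49 and 6.63 CPM in SG, 43.2, 34.3, 38.5 and 36.5 CPM in P and 158, 137, 152 and 147 CPM in D. The values met at P and had changed places by D in every mouse. Ndufa4 fell by 2.16 (SE 0.09, adjusted p = 1.11e-13) at P and 1.86 (SE 0.10, adjusted p = 8.88e-12) at D, and Ndufa4l2 rose by 2.14 (SE 0.19, adjusted p = 4.02e-09) and 2.25 (SE 0.16, adjusted p = 5.83e-10). Free RNA held 103 to 154 CPM of Ndufa4l2 in the Control libraries and 8.10 to 25.1 CPM in the TDP-43 cKO libraries, and early SC read 6.85 to 22.2 CPM in Control and 3.02, 3.44 and 3.82 CPM in TDP-43 cKO mice. The SG and early SC levels that these values start from are thus not separated from free RNA. Ndufa4l2 made 0.785 to 2.04% of the pair in SG, 44.7 to 53.6% in P and 93.4 to 95.4% in D of the Control mice. At RS Ndufa4 rose again (1.19, SE 0.10, adjusted p = 2.69e-09) and Ndufa4l2 still made 82.2 to 86.5%.

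Complex V had the smallest median of the 4 complexes at P, 0.35 with TMM and -0.17 with no scaling factor, with 6 of 17 subunits higher and 3 lower (1 and 5 with no factor). Of the 5 members of its catalytic F1 head, 1 was called higher at P (0 with no factor), and 4 fell at RS (2 with no factor). Atp5e, the highest of the complex in SG at 703, 802, 700.4 and 714 CPM, was called only at RS, where it fell by 0.75 (SE 0.06, adjusted p = 2.29e-09). The 3 that fell at P were Atp5mpl and Atp5md, small membrane subunits, and Atp5g2, which encodes the proton-carrying c ring. Atp5mpl read 520.5, 708, 592 and 579 CPM in SG, 129.6, 145, 124 and 131 CPM in P, 59.5, 65.6, 54.1 and 51.8 CPM in D and 311, 364, 395 and 415 CPM in RS. Atp5md read 335, 534, 383 and 385 CPM in SG, 73.8, 84.7, 70.0 and 75.6 CPM in P and 279.9, 397, 319.8 and 370.1 CPM in RS. Both were lower in P and D than in SG and RS in every mouse, and at RS rose by 2.49 (SE 0.11, adjusted p = 4.12e-13) and 1.73 (SE 0.10, adjusted p = 1.57e-11).

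The c ring has 3 genes that encode the same mature protein, and they parted ways. Atp5g2 averaged 287 CPM in SG, 94.4 CPM in P and 15.3 CPM in D, with falls of 1.29 (SE 0.11, adjusted p = 1.95e-09) and 2.33 (SE 0.12, adjusted p = 5.79e-12). Atp5g3 rose at P against early SC summed (0.77, SE 0.07, adjusted p = 1.31e-08). It fell at D (lower by 1.17, SE 0.07, adjusted p = 9.31e-11) and at RS (lower by 0.80, SE 0.08, adjusted p = 1.30e-08). Within early SC it read 129, 110, 109 and 118 CPM in L and 317, 262, 285 and 302 CPM in Z. In P it read 227, 197, 190 and 201 CPM, above L but below Z in every Control mouse. Atp5g1 fell at early SC (lower by 0.87, SE 0.09, adjusted p = 9.12e-08) and at D (lower by 0.75, SE 0.09, adjusted p = 3.28e-07) and rose at RS (0.83, SE 0.09, adjusted p = 5.40e-08). Summed means of the 3 are not compared, since 49.8% of the 3′ words of Atp5g2 and 36.6% of those of Atp5g1 occur in other annotated genes.

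**Figure D4:**
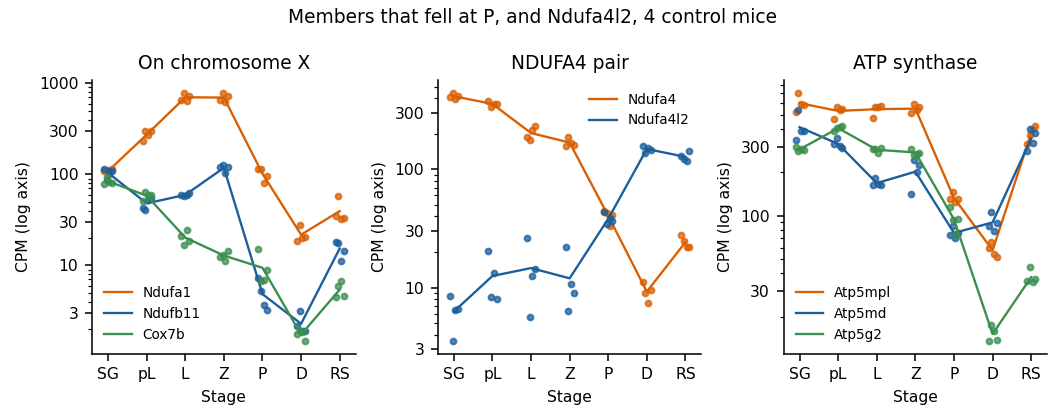
CPM on a log axis by stage for the 3 members on chromosome X (left), Ndufa4 and Ndufa4l2 (middle) and 3 ATP synthase members (right); points are the 4 Control mice and lines join their means. Ndufa4 and Ndufa4l2 cross at P, and Atp5mpl and Atp5md return at RS to 311 to 415 and 279.9 to 397 CPM.

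The 3 members on chromosome X all fell at P and rose at RS. Ndufa1 (chrX:37187588-37191163, mm10), a complex I subunit, read 109, 110.3, 101 and 114 CPM in SG, 661, 789, 637 and 725 CPM in L, 653, 777, 628 and 730.5 CPM in Z and 115, 115, 79.6 and 96.8 CPM in P. It was the member with the largest rise at early SC, 2.36 (SE 0.12, adjusted p = 1.90e-11), before it fell by 1.85 (SE 0.12, adjusted p = 4.19e-11) at P and 1.94 (SE 0.12, adjusted p = 1.11e-10) at D. Ndufb11 (chrX:20615326-20617619), also of complex I, read 119.7, 128, 104 and 120.0 CPM in Z, 7.26, 5.18, 3.65 and 3.22 CPM in P and 17.9, 17.7, 11.2 and 14.4 CPM in RS. Its fall of 3.46 (SE 0.19, adjusted p = 7.29e-12) at P was the largest of any member, and it rose by 2.46 (SE 0.23, adjusted p = 9.49e-09) at RS. Cox7b (chrX:106015700-106022450) read 78.5, 94.1, 82.7 and 80.3 CPM in SG and 12.3, 13.2, 11.2 and 14.5 CPM in Z, so that most of its loss came before P. It read 1.76, 1.89, 1.83 and 1.46 CPM in D, the lowest of its stages, and rose at RS by 1.42 (SE 0.26, adjusted p = 5.99e-05). Over all 714 genes tested on chromosome X, the median log2 fold change was -2.89 at P, with 75.4% called lower, and 1.86 at RS, with 82.4% called higher. On the autosomes 27.2% were called lower at P and 36.0% higher at RS. Without the testis isoforms, their counterparts and the genes on chromosome X, 44 of 71 members were higher and 5 lower at P, and 6 were higher and 41 lower at RS.

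As a share of all UMIs, the members and the mitochondrially encoded subunits took different courses. The 83 members made 2.53 to 2.70% of UMIs in SG of the Control mice, 1.83 to 2.24% in L, 3.15 to 3.38% in P, 3.03 to 3.22% in D and 2.17 to 2.53% in RS. Their share in pL and in Z lay above that in L and below that in P in every Control mouse. L was thus a low point, and part of the climb to P came by Z. The 13 protein-coding genes of mitochondrial DNA made 5.41 to 5.99% in SG, 4.57 to 4.98% in Z, 2.38 to 2.98% in P and 1.19 to 1.44% in D, in cells filtered to under 10% mitochondrial UMIs. The nuclear share was thus below the mitochondrial one up to Z and above it from P on in every Control mouse, and their ratio went from 0.426 to 0.469 in SG to 2.21 to 2.70 in D. Of the 13 mitochondrial genes, 0 were called between SG and early SC (4 at an unadjusted p under 0.05), 4 were lower at P and 10 lower at D. At RS 0 reached the fold of 1.5, with 9 lower and 1 higher at an unadjusted p under 0.05, and the D and RS ranges of their share overlapped (0.751 to 1.56% in RS).

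The share without the 4 testis isoforms was 2.46 to 2.61% in SG and 2.58 to 2.75% in P, and these ranges overlap. The isoforms alone made 0.572 to 0.624% of UMIs in P. UMIs per cell of all genes were 16645 to 27976 in SG, 7911 to 11989 in L, 23715 to 38651 in P, 58600.3 to 81399.8 in D and 7767 to 28046 in RS. The members' UMIs per cell were 449 to 710.1 in SG, 801 to 1290.1 in P and 1864 to 2580.3 in D, and 186 to 664 in RS. Depth per cell and RNA per cell cannot be told apart here. Among somatic cells the members made 3.66 to 4.14% of UMIs in Leydig cells, 2.19 to 2.73% in Sertoli cells and 1.95 to 2.19% in interstitial cells. Leydig cells, which make steroids in part inside mitochondria, had the highest share of any cell type examined in every Control mouse. Sertoli cells stood out in Cycs, at 907, 1033, 1215 and 1229 CPM in the Control mice, against 312 to 368 CPM in Leydig cells and 228 to 242 CPM in SG.

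**Figure D5:**
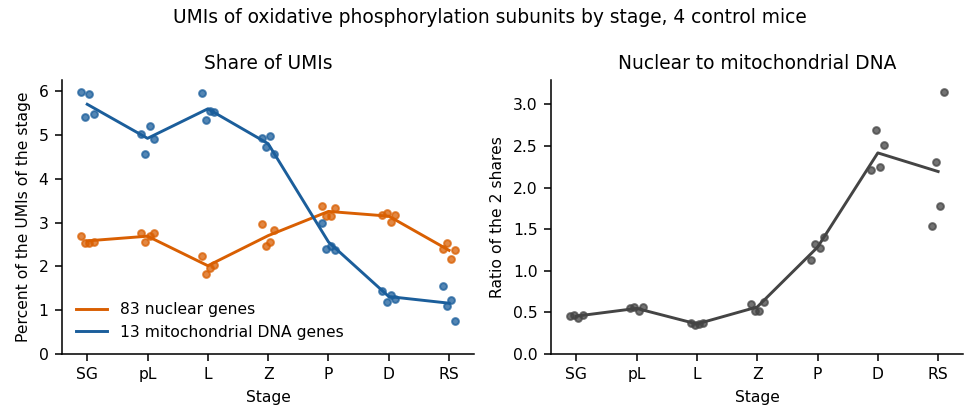
Percent of the UMIs of each stage that came from the 83 nuclear members (orange) and the 13 mitochondrial DNA genes (blue), and the ratio of the shares (right); points are the 4 Control mice and lines join their means. The lines cross between Z and P, and the ratio reaches 2.21 to 2.70 in D.

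Other genes of the pathway were followed from fixed lists. Complex II, succinate dehydrogenase, has 4 nuclear subunits, of which Sdha was higher at P (0.75, SE 0.07, adjusted p = 1.06e-08) and 3 fell at RS, with Sdhd lower by 2.38 (SE 0.15, adjusted p = 3.56e-11). Of 42 assembly factors tested, 14 were higher and 2 lower at early SC, 16 and 9 at P, 7 and 18 at D, and 7 and 18 at RS. The shares of all genes called higher and lower were 20.3% and 24.5% at early SC and 32.1% and 29% at P. They were 26% and 28.5% at D, and 37.9% and 31.1% at RS. The complex IV factors Cox16 (1.23) and Cox17 (1.04) were among those higher at early SC, and Coa4 (2.57) and the complex I factor Ndufaf3 (2.80) among those higher at P. Ecsit, a complex I factor, fell at P (-1.77, SE 0.08, adjusted p = 8.10e-13) and rose at RS (2.27, SE 0.09, adjusted p = 1.15e-13), and Nubpl, which supplies iron-sulphur clusters to complex I, rose at RS (3.93).

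Of 13 tricarboxylic acid cycle genes, 4 were higher and 5 lower at P, where 32.1% and 29% of all genes were. Idh3g, a chromosome X subunit of isocitrate dehydrogenase, fell by 4.46 (SE 0.16, adjusted p = 3.14e-14), while Suclg1 (1.96) and Idh3b (1.68) rose. Mdh2, malate dehydrogenase, fell at early SC (-1.39), P (-1.55) and D (-1.09). The pyruvate dehydrogenase pair went in opposite directions, with Pdha2, the testis form, higher at early SC (1.37, SE 0.11, adjusted p = 3.17e-09) and P (2.52, SE 0.10, adjusted p = 8.86e-14) and Pdha1, on chromosome X, lower at both (-1.46 and -3.32). Of the 11 regulators of respiratory genes, 2 were higher and 5 lower at P (32.1% and 29% of all genes). Nrf1, which encodes the factor of the string in the Cycs promoter, fell at P (-1.30, SE 0.10, adjusted p = 1.01e-09) and at D (-1.99, SE 0.11, adjusted p = 3.24e-11) and rose at RS (1.58, SE 0.12, adjusted p = 5.01e-10). Gabpa, for the factor of the string in Cox6b1, fell at P (-1.36), rose at D (0.92) and fell at RS (-0.92). Esrra, a nuclear receptor, rose at P (1.43) and fell at RS (-2.64).

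The genotypes were compared in SG and early SC summed per mouse, with cKO germ cells that held a UMI of the targeted gene left out. With edgeR, 0 of 82 members were called in NELF-B cKO and 0 in TDP-43 cKO mice, where 1 gene of all 19444 tested (0.00514%) was called in each comparison. Both comparisons use the same 4 Control mice and come from 1 fit. The number called in TDP-43 cKO therefore also changed when an NELF-B cKO mouse was left out, as given below. At an unadjusted p under 0.05, 4 members were higher and 13 lower in NELF-B cKO and 17 higher and 7 lower in TDP-43 cKO mice, where 14.3% and 24.5% of all genes reached that p. With no cell left out edgeR again called 0 members in both, and those counts were 5 higher and 12 lower in NELF-B cKO and 5 higher and 9 lower in TDP-43 cKO mice, so the balance in TDP-43 cKO turned with the choice of cells. DESeq2 called 2 members higher and 7 lower in NELF-B cKO, where it called 3.37% of all genes (371 higher and 285 lower). In TDP-43 cKO it called 10 members higher and 4 lower, where it called 12.8% of all genes (711 higher and 1784 lower). The members' median was -0.09 in NELF-B cKO (all genes -0.02) and 0.14 in TDP-43 cKO (all genes 0.01), and with no cell left out it was -0.08 and 0.03 (all genes -0.02 and 0.01). The spread over mice left a median standard error of 0.13 and 0.11 on the log2 scale.

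In NELF-B cKO mice the smallest p among members belonged to Ndufa2, a complex I subunit that read 423, 465, 430.2 and 417 CPM in Control and 322 and 304 CPM in NELF-B cKO mice. The groups did not overlap, at a log2 difference of -0.49 (SE 0.09, adjusted p = 0.138) in edgeR. Cycs followed, with 224, 212, 214 and 224 CPM in Control and 291 and 354 CPM in NELF-B cKO mice, a difference of 0.54 (SE 0.11, adjusted p = 0.144). It was higher in both cKO mice than in any Control mouse. In TDP-43 cKO mice the smallest p belonged to Ndufa3, of complex I, at 145, 155, 142 and 137 CPM in Control and 102, 109 and 90.9 CPM in TDP-43 cKO mice (-0.46, SE 0.09, adjusted p = 0.0863). Ndufa4 read 340.4, 368, 334 and 321 CPM in Control and 454, 431 and 401 CPM in TDP-43 cKO mice (0.39, SE 0.09, adjusted p = 0.0863). Its difference was also 0.39 in Sertoli, 0.36 in interstitial and 0.18 in Leydig cells of TDP-43 cKO mice. The germ cell effect minus the Sertoli one was 0.02. In early SC alone the difference of Ndufa4 was 0.19 after the removal and 0.02 with no cell left out. None of these differences was called by edgeR. In early SC alone with no cell left out, however, edgeR called Ndufa3 lower (-0.72, SE 0.14, adjusted p = 0.0394). In SG and early SC summed, neither Ndufa3 nor Ndufa4 passed the adjusted threshold. All 3 cKO mice lay outside the Control range for both genes. Genes of small p tend to stand apart in this way, so it is no separate support. Of the 17 complex V subunits, 17 had a positive difference in TDP-43 cKO, where 62 of 82 members and 51.2% of all genes did, and 0 were called by edgeR. With no cell left out 12 of the 17 were positive, with 44 of 82 members and 51.4% of all genes. In NELF-B cKO 8 of the 17 were positive, where 27 of 82 members and 47.3% of all genes were.

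Among the testis isoforms no difference in SG and early SC summed of cKO mice passed the edgeR test. Cox8c is given with its free RNA level. Cox8c in SG and early SC read 513, 201, 348 and 294 CPM in Control and 36.2, 125 and 94.1 CPM in TDP-43 cKO mice, a difference of -1.96 (SE 0.57, adjusted p = 0.0903). Free RNA of Cox8c was 3120.5, 2392, 2679 and 2350.0 CPM in those Control libraries and 77.8, 861 and 559 CPM in the TDP-43 cKO libraries. Every TDP-43 cKO library was below every Control library in both. Whether free RNA accounts for the difference was not tested.

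Sertoli cells, where Stra8-iCre is not known to act, were compared in the same way. In Sertoli cells of TDP-43 cKO mice, 2 of 80 members were called higher (4.67% of all genes) and 5 lower (10.2% of all genes). The 5 lower ones were the 4 testis isoforms and Ndufa4l2, at -2.55 for Cyct, -2.33 for Cox7b2, -2.98 for Cox6b2, -3.53 for Cox8c and -3.54 for Ndufa4l2, while Atp5g3 (0.57) and Atp5g2 (0.46) were higher. Sertoli cells had medians of 2075 to 2696 UMIs in Control and 6130 to 22982 UMIs in TDP-43 cKO mice, and with cells of at least 5000 UMIs edgeR called 0 members, with 20 at an unadjusted p under 0.05 (24.9% of all genes). The fitted differences of the testis isoforms kept their sign there, and none passed the adjusted threshold. They were -2.06 for Cyct (adjusted p = 0.0586), -1.58 for Cox7b2 (0.123), -2.38 for Cox6b2 (0.0619) and -3.00 for Cox8c (0.0652). In NELF-B cKO Sertoli cells edgeR called 0 members, with 5 at an unadjusted p under 0.05 (10.5% of all genes).

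The difference between the genotype effect in germ cells (SG and early SC) and in Sertoli cells was tested as an interaction within the mouse. In TDP-43 cKO mice 5 members passed, where 3.01% of all genes did: Cyct at 2.54 (SE 0.56, adjusted p = 0.0351), Cox7b2 at 2.24 (SE 0.50, adjusted p = 0.036), Cox6b2 at 2.33 (SE 0.39, adjusted p = 0.0144), Cox8c at 2.10 (SE 0.44, adjusted p = 0.0266) and Ndufc2 at -0.69 (SE 0.12, adjusted p = 0.0176). The log2 difference of each testis isoform was nearer to 0 in germ cells than in Sertoli cells, and that of Cyct in germ cells was -0.27. Leaving out 1 mouse at a time moved the number of members from 1 to 12, with 1 left without Control mouse 2 or 4 or TDP-43 cKO mouse 1 or 3, 2 without Control mouse 1 or 3, 9 without NELF-B cKO mouse 2 or TDP-43 cKO mouse 2, and 12 without NELF-B cKO mouse 1. Over those same fits 0.203 to 7.79% of all genes passed, and the median of all genes lay between -0.29 and 0.11, against 0.07 with all mice. The difference of Cyct then ran from 1.52 to 2.83 and that of Ndufc2 from -1.09 to -0.63. In NELF-B cKO mice 0 members passed in edgeR (0.03% of all genes), with 11 at an unadjusted p under 0.05 (9.39% of all genes), and Ndufc2 had the smallest p, at -0.48 (SE 0.14, adjusted p = 0.342).

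Within single stages, P showed how the choice of cells sets the result. With P cells that held any Tardbp UMI removed, TDP-43 cKO mice 2 and 3 kept 42 and 51 P cells with medians of 2388 and 2600 UMIs, against 5056 to 26316 in Control mice, and 65 of 80 members were called lower and 0 higher, where 9.5% and 2.48% of all genes were called. With no cell left out, the same mice held 199 and 189 P cells with medians of 37797 and 20979 UMIs, and edgeR called 0 members (0.00615% of all genes), with 3 at an unadjusted p under 0.05 (6.96% of all genes). The members' median was -1.11 in the first set and -0.03 in the second. In the second set Cox8c read 3289.7, 2965, 3169 and 3114 CPM in P of Control and 2935 and 2814 CPM in P of TDP-43 cKO mice, and Cyct 504 to 577 and 499 and 511 CPM. In early SC of TDP-43 cKO mice with no cell left out, Ndufc1 (-0.38, SE 0.09, adjusted p = 0.044) and Ndufa3 (-0.72, SE 0.14, adjusted p = 0.0394) were lower, where 5.17% of all genes were called, and after the removal edgeR called 0 members there, with 13 at an unadjusted p under 0.05 (26.0% of all genes). In NELF-B cKO mice edgeR called 0 members in SG, early SC, P and Leydig cells. At an unadjusted p under 0.05 there were 19 members in SG (13.2% of all genes), 20 in early SC (15.3%), 1 in P (8.03%) and 1 in Leydig cells (10.1%). In TDP-43 cKO mice it called 0 members in SG, RS and Leydig cells. At an unadjusted p under 0.05 there were 25 higher and 7 lower in SG (19.6% of all genes), 53 lower in RS of 2 mice (21.0%) and 9 members in Leydig cells (19.7%). With no cell left out, 4 were higher and 7 lower in SG (17.5% of all genes), and 1 was higher and 11 lower in RS (10.2%), where the members' median moved from -0.58 to -0.18.

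The members' share of UMIs by genotype is given without a test, first with no cell left out. In SG it was 2.53 to 2.70% in Control, 2.48 to 2.57% in NELF-B cKO and 2.42 to 2.67% in TDP-43 cKO mice. In early SC it was 2.31 to 2.67%, 2.29 to 2.39% and 2.23 to 2.41%, and in P 3.15 to 3.38%, 2.77 to 3.46% and 3.12 to 3.13%. After the removal of cells in which the deleted gene was still seen, the share in P was 2.75 and 3.42% in NELF-B cKO and 2.19 and 1.73% in TDP-43 cKO mice. It was 2.57 to 2.91% in SG and 2.29 to 2.48% in early SC of TDP-43 cKO mice.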

How the data were processed

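Single cells of whole testis of 9 mice (4 Control, 2 NELF-B cKO, 3 TDP-43 cKO) were measured with 10x Genomics 3′ NextGEM v3.1 libraries, 1 per mouse. The deposited values are raw UMI counts per gene and barcode that the authors made with Cell Ranger on mm10. The submitters' processing notes list Cell Ranger 6.1.1 and 7.0.0, Seurat 4.2.0 and DESeq2 1.36. The 3′ UMIs tag 1 place per transcript molecule, so levels of different genes carry no length term.

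The filter kept barcodes of more than 1000 genes whose mitochondrial share was below 10%, and genes seen in over 15 such barcodes. Scanpy 1.11.5 (Python 3.11.15) and leidenalg 0.10.2 gave 33 clusters at a resolution of 0.8, without members, mitochondrial genes or pathway genes among the clustering genes. Clusters were named from marker lists, with a median of at least 2000 UMIs, at most 80% from 1 mouse and at least 3 markers, and 27 were named, so cell types can differ from those of the study. No doublet caller was run. As in the study's methods, germ cells of cKO mice in which the deleted gene was still seen were dropped from genotype comparisons (235 NELF-B cKO and 3168 TDP-43 cKO cells, leaving 26046).

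Summed counts of each mouse and type with at least 20 cells were used, and edgeR 4.0.16 (R 4.3.3) was run across all genes with TMM scaling, a quasi-likelihood test and Benjamini-Hochberg adjustment. The stage fit held SG, early SC, P, D and RS of the Control mice with the mouse as a block, and calls needed an adjusted p under 0.05 and 1.5-fold. The genotype fits held all 9 mice where they had enough cells, and calls needed an adjusted p under 0.05. Mice are separate animals. The steps were tested on simulated data first. Alternatives were DESeq2 1.42.0, its size factors, no scaling factor, no filter on low counts, other cut-offs, at least 5000 UMIs per cell, under 5% mitochondrial UMIs, a resolution of 1.2, the replicate number as a block and leaving out each mouse. Free RNA is the sum of barcodes of 1 to 100 UMIs.

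The members and lists were chosen with earlier results of these data known. Genes named are the testis isoforms, their counterparts, members on chromosome X, muscle, lung or hypoxia isoforms and their common forms, the 3 called members of largest change in each direction and stage comparison, the highest of each complex in SG, and up to 4 of a pathway list by p. A member that this rule would name is not reported here. Ndufc1, Uqcrq, Atp5md, Atp5g1, Atp5g3, Ndufa2, Ndufa3, the called members of the Sertoli and early SC comparisons and further pathway genes were chosen after their values were seen. Positions are GENCODE vM21 on mm10. Shared 3′ words are 60-base words of the last 400 bases of each transcript.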

Additional observations from a re-analysis of the deposited data

Results flagged for a closer look

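In 128 groups of 4 Control mice, 6 held 1 value far from the other 3 by Dixon's test at the 95% level, which chance gives in about 1 of 20 groups. Atp5e, the epsilon subunit of ATP synthase, read 802 CPM in SG of 1 mouse against a lowest of 700.4 CPM, and 857 CPM in P of 1 mouse against a lowest of 780.0 CPM. Cox6a1 read 435 CPM in SG of 1 mouse against a lowest of 350.4 CPM. Cox7a2 read 1409 CPM in D of 1 mouse against a lowest of 1229 CPM. Ndufa1 read 57.6 CPM in RS of Control mouse 2 against a lowest of 32.1 CPM. The mitochondrial DNA genes made 2.98% of UMIs in P of 1 mouse against a lowest of 2.38%.

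The TDP-43 cKO effect differed between germ cells (SG and early SC) and Sertoli cells for 5 members by the interaction test in edgeR. The difference of the log2 effects was 2.33 for Cox6b2, 2.24 for Cox7b2, 2.10 for Cox8c and 2.54 for Cyct, where the difference from Control was nearer to 0 in germ cells. For Ndufc2 it was -0.69, with -0.37 in germ cells and 0.35 in Sertoli cells. Free RNA of the 4 isoforms and the median depth of Sertoli cells differed between the same groups of libraries, and their part in these differences was not tested.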

How the results depend on the processing

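Of 52 changes of single members under 623 alternative values, 597 kept their direction and side of the threshold, 26 kept the direction only and 0 reversed. Only changes called in the main fit were taken, of the isoforms, the chromosome X members and the largest changes of each step. A reversal was therefore unlikely from the choice. Between SG and early SC, 25 members were higher with cells clustered at a resolution of 1.2, and 32 were higher and 30 lower with no fold minimum. At P, 22 were higher with no scaling factor, which was added after seeing the data, and 30 at a resolution of 1.2. At D, 20 were higher with DESeq2 and with DESeq2 size factors in edgeR, 2 higher and 20 lower with no scaling factor, and 31 higher and 26 lower with no fold minimum. At RS, 23 were lower with no scaling factor. The scaling moved the median of all genes by these steps, and the cause of the changes with clustering was not tested. Shares of all genes called are given above for no scaling factor only, so the other counts are not read as results about the members.

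In SG and early SC of NELF-B cKO mice, DESeq2 called 2 members higher and 7 lower, leaving cells with a Nelfb UMI out of Control mice too gave 2 and 3 (1.18% and 0.978% of all genes), and a resolution of 1.2 gave 1 and 5 (0.47% and 0.964%). Leaving out 1 Control or TDP-43 cKO mouse gave 0 members higher, and each such fit called 1 gene of all lower. Leaving out an NELF-B cKO mouse leaves 1 in that group, so the calls of those fits are not given. In TDP-43 cKO mice DESeq2 called 10 higher and 4 lower, a resolution of 1.2 gave 8 and 9 (7.01% and 13.5% of all genes), and leaving out 1 mouse gave 0 to 5 higher and 0 to 4 lower, the highest without an NELF-B cKO mouse (3.4 to 3.53% and 8.85 to 8.93% of all genes). With no cell left out, 2 members were called in early SC and 0 in P of TDP-43 cKO mice, and with at least 5000 UMIs per cell 0 in Sertoli cells, where the difference of Cyct was -2.06. The difference between germ and Sertoli cells called 18 members in TDP-43 cKO with no cell left out (9.07% of all genes) and 1 to 12 with 1 mouse left out (0.203 to 7.79%). In NELF-B cKO it called 0 members with 1 Control or TDP-43 cKO mouse left out. Calls without an NELF-B cKO mouse are not given there, since 1 is left in that group. Weighting SG and early SC equally kept the sign of 73 of 82 members in NELF-B cKO and of 67 of 82 in TDP-43 cKO.

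With a replicate block on the replicate numbers, edgeR called 0 members in both genotype comparisons, as without it. The deviations of mice of the same number from their group means correlated from -0.57 to 0.35 over 7 pairs. With 2 NELF-B cKO mice these deviations mirror each other, so this check cannot decide whether the numbers pair the mice. The genotype comparison in RS with at least 5000 UMIs per cell was not run, because too few mice were left. In D and RS only 1 NELF-B cKO mouse had at least 20 cells (mouse 2 held 7 and 12 with none left out), so no comparison was made there for NELF-B cKO.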

Other observations

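In the Control mice the members made 2.04 to 2.40% of UMIs in immune cells, a range that overlaps those of L and RS. Leydig cells read 409.6, 441, 379.6 and 398 CPM of Cox7b, the chromosome X gene, against 78.5 to 94.1 CPM in SG. Cox8a read 1164, 1176, 1000.1 and 1098 CPM in Leydig cells and 409, 425, 473 and 515 CPM in Sertoli cells, above and below its 539 to 628 CPM in SG. Cox4i1 read 1701, 1376, 1421 and 1444 CPM in Leydig cells. Ndufa4l2 read 9.68, 0.930, 11.1 and 4.66 CPM in Leydig cells, against 103 to 154 CPM in free RNA.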
